A study of Mus musculus with 16 samples.

Results

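Lipid droplets are the organelles in which hepatocytes keep triglyceride and cholesteryl ester. They bud from the endoplasmic reticulum (ER) and are enclosed by a phospholipid monolayer, and the proteins on that surface set how fast the stored fat is built up, fused or broken down. The 10 genes described here were taken by symbol from the deposited gene table, and all 10 were found among its 50559 symbols. They are the perilipins Plin2, Plin3, Plin4 and Plin5, which coat the droplet, the CIDE genes Cidea, Cideb and Cidec, whose proteins act where droplets or lipoprotein particles take up lipid, Fitm1 and Fitm2, which encode ER membrane proteins that help droplets form, and G0s2, whose product inhibits adipose triglyceride lipase. Plin2 and Cideb are well known from normal liver. Cidea, Cidec and Plin4 are best known from fat tissue, and several of the 10 are textbook targets of the peroxisome proliferator-activated receptors (PPARs).

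Liver RNA was sequenced from 16 male C57BL/6J mice, 4 to a group. The mice were 6 weeks old when the diets began and were killed after 10 weeks, with treatment over the last 4 weeks. LFD mice ate a low-fat diet, which the labels call chow, and all others ate a high-fat diet. All mice were given siRNA injections every 2 weeks and 2 gavages per day. For LFD and HFD mice these were a luciferase control siRNA (10 mg/kg) and methylcellulose. HFD + siRNA mice were given methylcellulose and 20 mg/kg of an siRNA against ketohexokinase (KHK), the enzyme that phosphorylates fructose. HFD + Inhib mice were given the luciferase siRNA and 15 mg/kg of a small-molecule KHK inhibitor. The KHK siRNA carries a sugar ligand that directs it to hepatocytes, whereas an oral inhibitor is not restricted to the liver. Mice also had saline or insulin shortly before the liver was frozen, and which mouse had which is not given in the sources used here. Library totals ranged from 24317111 to 35820234 expected counts (median 29570114). The labels number the libraries of a group as replicates and name no shared litter or day. HFD replicate 2, the deepest library, had the most Cidea and Cidec of the HFD libraries, and the fold changes of both genes that involve HFD are also given without it.

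The labels were checked with Khk itself. In CPM (counts scaled to a common library total), Khk was at 214, 233, 349 and 269 in the LFD libraries, replicates 1 to 4, and at 251, 322, 233 and 251 in the HFD libraries. It was at 11.8, 9.14, 18.1 and 11.5 CPM with siRNA and at 112, 152, 94.6 and 120.5 CPM with the inhibitor. The HFD + siRNA libraries were below all others, and the HFD + Inhib libraries lay between them and the untreated groups. Against HFD, Khk fell by 4.38 on the log2 scale with siRNA (SE 0.23, adjusted p = 1.88e-08 by edgeR's quasi-likelihood test) and fell by 1.14 with the inhibitor (SE 0.20, adjusted p = 7.52e-04). Between HFD and LFD it differed by -0.01 (95% interval -0.43 to 0.40, adjusted p = 0.975).

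The DNA upstream of some of these genes is shown because most of the 10 were higher in the HFD + Inhib livers and because PPARs bind paired copies of the hexamer AGGTCA. RefSeq promoter entries on GRCm38.p6 were found for 9 of the 10 genes, and the 250 bases before the annotated start are printed 5′ to 3′ on the strand of the gene. Plin2 and Plin5 are shown for their hexamer matches, and Cidec, Fitm2 and G0s2 as genes with no match that rose with the inhibitor. Capitals mark AGGTCA or its reverse complement TGACCT.
Plin2 (chr4:86670060-86670309, minus strand): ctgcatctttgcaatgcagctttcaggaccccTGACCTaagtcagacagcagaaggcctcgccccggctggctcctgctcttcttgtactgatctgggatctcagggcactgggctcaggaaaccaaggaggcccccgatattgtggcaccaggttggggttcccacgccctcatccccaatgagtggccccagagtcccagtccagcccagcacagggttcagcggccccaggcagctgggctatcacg
Plin5 (chr17:56117549-56117798, minus strand): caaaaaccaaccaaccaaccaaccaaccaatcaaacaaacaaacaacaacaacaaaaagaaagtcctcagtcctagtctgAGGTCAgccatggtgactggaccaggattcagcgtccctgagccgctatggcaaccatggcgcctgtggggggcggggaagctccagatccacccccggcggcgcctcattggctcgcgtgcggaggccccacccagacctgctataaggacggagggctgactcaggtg
Cidec (chr6:113434765-113435014, minus strand): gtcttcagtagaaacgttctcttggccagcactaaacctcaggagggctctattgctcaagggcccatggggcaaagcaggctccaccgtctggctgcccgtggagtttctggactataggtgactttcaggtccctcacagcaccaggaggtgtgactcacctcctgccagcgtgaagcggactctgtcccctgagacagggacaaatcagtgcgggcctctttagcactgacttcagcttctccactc
Fitm2 (chr2:163472630-163472879, minus strand): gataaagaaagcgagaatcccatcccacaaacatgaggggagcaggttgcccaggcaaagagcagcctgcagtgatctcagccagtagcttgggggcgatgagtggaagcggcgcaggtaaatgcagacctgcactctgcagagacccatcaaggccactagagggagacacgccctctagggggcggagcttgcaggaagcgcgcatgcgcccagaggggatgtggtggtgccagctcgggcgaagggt
G0s2 (chr1:193273189-193273438, minus strand): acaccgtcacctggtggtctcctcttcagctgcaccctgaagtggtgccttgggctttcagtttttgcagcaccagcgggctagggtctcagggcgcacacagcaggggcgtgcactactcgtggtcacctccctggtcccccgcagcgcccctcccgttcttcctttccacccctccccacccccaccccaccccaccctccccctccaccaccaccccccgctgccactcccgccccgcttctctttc

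The PPAR-RXR element called DR1, in which 2 copies of the hexamer are separated by 1 base, was searched on both strands and found in 11 of 32851 mouse promoter windows of this length (0.0335%) and in no window of the 9 genes. The hexamer alone, which any DR1 also contains, was found in 4607 windows (14%). Among the 9 genes it was found 218 bases before the start of Plin2 and, in 1 of the 2 Plin5 windows, 170 bases before the start. These matches describe the letters of these windows only.

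The 10 genes together took a larger share of the RNA in the HFD + Inhib livers than in any other group, and most of the gain was Plin2. Their share of all expected counts was 0.0553%, 0.0634%, 0.0653% and 0.0517% in the LFD libraries and 0.0707%, 0.0898%, 0.0788% and 0.0724% in the HFD libraries. It was 0.0740%, 0.0778%, 0.0817% and 0.0888% with siRNA and 0.173%, 0.158%, 0.134% and 0.168% with the inhibitor. The LFD libraries were the lowest, HFD and HFD + siRNA overlapped, and the HFD + Inhib libraries stood above all others. From HFD to HFD + Inhib the sum of the 10 went from 732 to 1624 CPM, a difference of 892, of which Plin2 made up 673 CPM, while Plin3 and Cideb were not called higher. Since these are pieces of whole liver, a change in the number of cells of a type cannot be told apart from a change in the RNA per cell.

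**Figure D1:**
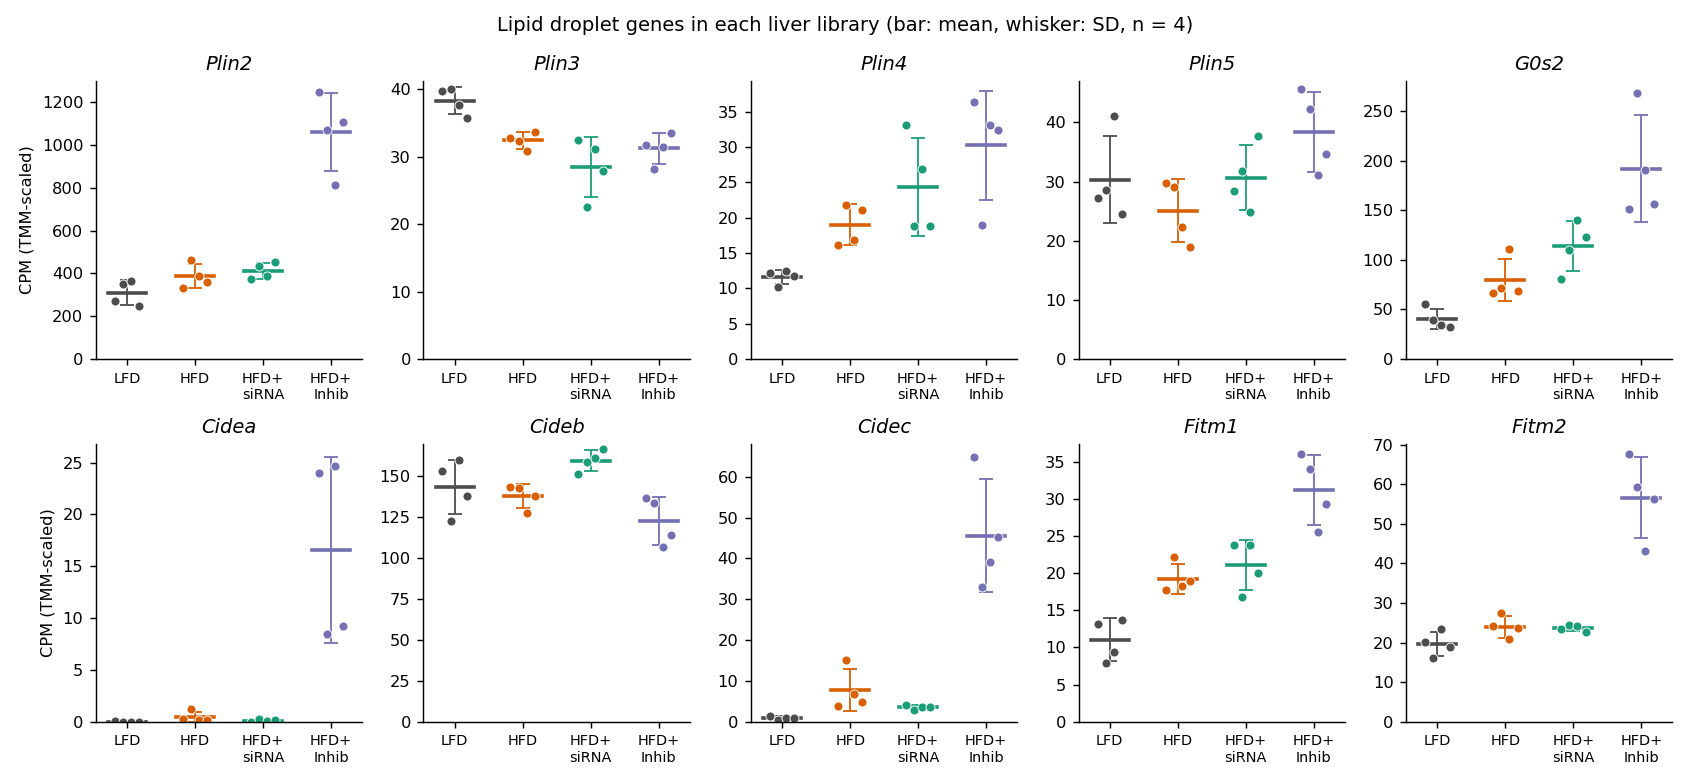
CPM (TMM-scaled, linear axes from 0) of the 10 genes by group; each point is 1 library, the thick line the mean of 4 libraries and the whisker the SD. Plin2, Cidea, Cidec and Fitm2 are far higher in all 4 HFD + Inhib libraries than in any other library. Plin3 is highest in the LFD libraries, and the HFD + Inhib and HFD libraries overlap for Cideb.

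Of the 9 genes other than Cidea, 4 were higher in HFD than in LFD and 0 were lower at an adjusted p under 0.05, where 9.58% of all 18335 tested genes were higher and 8.8% lower (18.4% in all). At an unadjusted p under 0.05 the counts were 6 and 1, beside 16.3% and 16.4% of all genes, and DESeq2 called 4 and 0, beside 10.6% and 10.4%. With siRNA 0 of the 9 were higher and 1, Cidec, was lower than in HFD, where 5.2% of all genes were higher and 6.55% lower (11.7% in all). Without adjustment these counts were 2 and 1 (13.1% and 13.9% of all genes), and DESeq2 called 0 and 1 (7.18% and 9.42%). The call of Cidec was lost, which left 0, at an adjusted p under 0.01 and with only the 2 groups fitted. The same held with the replicate number as a block, and without HFD replicate 2, HFD replicate 3 or any 1 HFD + siRNA library. The inhibitor gave 7 higher genes and 0 lower against HFD, where 9.8% of all genes were higher and 8.42% lower (18.2% in all). Here the counts were 7 and 0 without adjustment (16% and 14.9% of all genes) and 7 and 0 by DESeq2 (11.2% and 9.34%).

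Between the treatments, 5 of the 9 were higher and 1 was lower with the inhibitor than with siRNA, where 17.3% of all genes were higher and 16.6% lower (33.8% in all). With GC content and length corrected for, 7 were higher and 1 was lower, beside 2216 and 2415 of 16109 genes. Against LFD, HFD + siRNA had 4 higher and 1 lower (4.75% and 3.88% of all genes, 8.63% in all), and HFD + Inhib had 6 higher and 1 lower (18.8% and 18.2% of all genes, 36.9% in all). The median log2 fold change of the 9 was 0.32 for HFD against LFD, 0.13 for siRNA and 0.70 for the inhibitor against HFD, beside medians over all tested genes of -0.01, 0.02 and 0.00. Cidea is kept apart from these counts because only the HFD + Inhib group brought it past the filter on low counts. The comparisons share libraries, since HFD stands in 3 of them and LFD in 3.

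**Figure D2:**
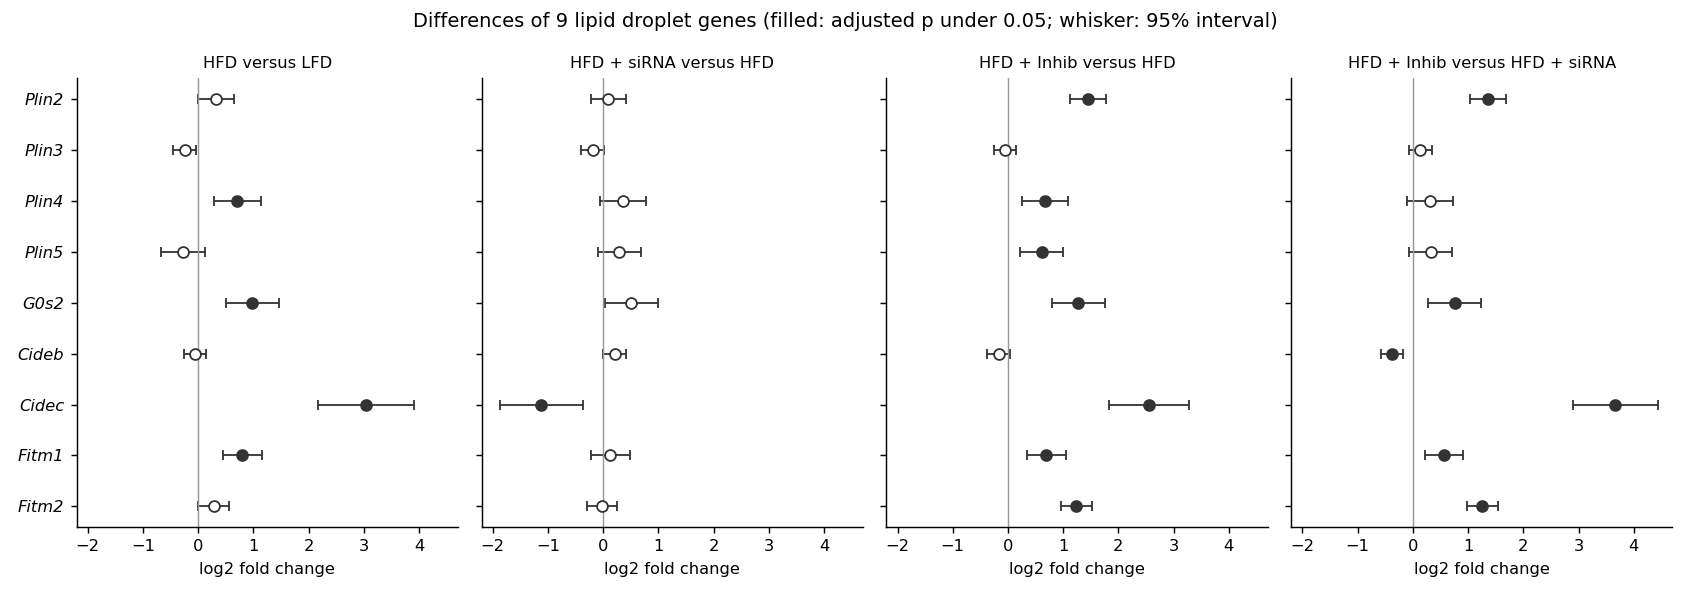
Log2 fold change (x axis) of 9 lipid droplet genes (y axis) in 4 comparisons, with 95% intervals as whiskers; filled points passed an adjusted p of 0.05 by edgeR. Cidea is left out because its low counts give no stable fold. Cidec lies farthest from 0 in each panel, and Plin3 is unfilled in all 4.

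Plin2, the main coat protein of hepatocyte droplets, was the most abundant perilipin. It was at 271, 352, 366 and 247 CPM in the LFD libraries and at 334, 463, 390.0 and 361 CPM in the HFD libraries. With siRNA it was at 372, 435, 389 and 452 CPM, and with the inhibitor at 1248, 1071, 811 and 1108 CPM. The HFD + Inhib libraries were all above the highest library of the other groups, while HFD overlapped with LFD and with HFD + siRNA. The inhibitor raised Plin2 by 1.45 on the log2 scale against HFD (2.74-fold, SE 0.15, adjusted p = 6.74e-06) and by 1.36 against HFD + siRNA (2.57-fold, SE 0.15, adjusted p = 7.81e-06). The step from LFD to HFD was 0.32 (95% interval 0.01 to 0.64, adjusted p = 0.145) and that from HFD to HFD + siRNA 0.09 (interval -0.23 to 0.41, adjusted p = 0.745), and neither passed.

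Per kilobase of transcript, Plin2 was at 164 CPM in LFD, 205 in HFD, 218 with siRNA and 561 with the inhibitor (means of 4). Among the 16109 tested genes with a known length, this put it at place 334, 214, 242 and 83 in these groups. With summed exon length in place of 1 transcript, the levels were 88.0, 110.1, 117 and 302 CPM per kilobase and the places 457, 313, 338 and 113. By the single transcript it made up 85.4% ± 1.38 of the CPM per kilobase of the 4 perilipins in LFD, 89.1% ± 1.54 in HFD, 88.8% ± 1.17 with siRNA and 94.4% ± 0.602 with the inhibitor (SD, n = 4), and by summed exons 76.6%, 82.1%, 81.5% and 90.3%. Plin2 shares 4.89% of its 50-base words with Gm12551 on the same strand.

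Plin3, a perilipin that moves between the cytosol and young droplets, was called lower in both treated groups than in LFD. It was not called between the high-fat groups. It was at 39.8, 40.0, 37.6 and 35.8 CPM in LFD and at 32.8, 32.3, 30.8 and 33.7 CPM in HFD. Under siRNA it was at 32.5, 22.5, 31.1 and 27.8 CPM, and with the inhibitor at 31.7, 28.1, 31.4 and 33.6 CPM. All LFD libraries were above all others, and the high-fat groups overlapped. From the lowest mean to the highest the order was HFD + siRNA, HFD + Inhib, HFD and LFD, and no step between neighbours passed (adjusted p = 0.322, 0.759 and 0.1). Against LFD, Plin3 fell by 0.43 on the log2 scale with siRNA (SE 0.10, adjusted p = 0.0131) and fell by 0.30 with the inhibitor (SE 0.10, adjusted p = 0.0269). Fitting the 2 groups alone ended the siRNA call (-0.42, adjusted p = 0.0713). The inhibitor call was lost with no filter on low counts (-0.28, adjusted p = 0.0704) and with GC content and length corrected for (-0.23, adjusted p = 0.0861). It was also lost without LFD replicate 1 (-0.27, adjusted p = 0.0612), LFD replicate 2 (-0.28, 0.0510) or HFD + Inhib replicate 2 (-0.25, 0.0740).

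Plin4, a perilipin abundant in fat tissue and muscle, rose with the high-fat diet. It was at 12.1, 10.2, 12.5 and 11.7 CPM in LFD and at 16.2, 21.8, 16.9 and 21.1 CPM in HFD. In HFD + siRNA it was at 33.1, 18.8, 26.9 and 18.8 CPM, and with the inhibitor at 36.4, 19.0, 33.2 and 32.4 CPM. The LFD libraries were all below the others, whereas the high-fat groups overlapped, with HFD + Inhib replicate 2 inside the HFD range. The difference of HFD from LFD was 0.71 on the log2 scale (1.63-fold, SE 0.20, adjusted p = 0.0236), that of HFD + Inhib from HFD 0.67 (1.59-fold, SE 0.20, adjusted p = 0.0265), and that of HFD + siRNA from LFD 1.07 (2.09-fold, SE 0.20, adjusted p = 0.00380). The neighbours HFD and HFD + siRNA (0.36, adjusted p = 0.264) and HFD + siRNA and HFD + Inhib (0.31, adjusted p = 0.237) did not pass. The diet call was lost without HFD replicate 2 (0.63, adjusted p = 0.0609) or 4 (0.66, adjusted p = 0.0617). The inhibitor call against HFD was lost without HFD replicate 1 or 3 or HFD + Inhib replicate 1, 3 or 4 (log2 fold changes from 0.57 to 0.64, adjusted p from 0.0639 to 0.0827). The difference between the inhibitor and siRNA passed with GC content and length corrected for (0.56, adjusted p = 0.0391) and without HFD + Inhib replicate 2 (0.49, adjusted p = 0.0394).

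Plin5, which ties droplets to mitochondria in tissues that burn fat, lies next to Plin4 on chromosome 17, 1798 bases away and on the same strand. It was at 27.2, 28.6, 41.1 and 24.5 CPM in LFD and at 29.8, 29.2, 22.4 and 18.9 CPM in HFD. With siRNA it was at 28.4, 31.8, 24.9 and 37.7 CPM, and with the inhibitor at 45.7, 42.2, 31.0 and 34.7 CPM. Every HFD + Inhib library was above every HFD library, and the other groups overlapped. The inhibitor raised Plin5 by 0.61 on the log2 scale against HFD (1.53-fold, SE 0.18, adjusted p = 0.0291). The order was HFD, LFD, HFD + siRNA and HFD + Inhib, and no step between neighbours passed (adjusted p = 0.323, 0.973 and 0.188). The call was lost without HFD replicate 3 or 4 or HFD + Inhib replicate 1 or 2 (log2 fold changes from 0.50 to 0.56, adjusted p from 0.0738 to 0.0944). With GC content and length corrected for, Plin5 was also higher with the inhibitor than with siRNA (0.58, adjusted p = 0.0115) and than in LFD (0.67, adjusted p = 0.00484), and the latter also passed without LFD replicate 3 (0.52, adjusted p = 0.0355).

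G0s2, whose product holds back adipose triglyceride lipase, rose with the diet and again with the KHK inhibitor. It was at 55.4, 38.9, 34.4 and 32.3 CPM in LFD and at 66.7, 71.8, 111 and 68.4 CPM in HFD. With siRNA it was at 80.8, 109.9, 141 and 123 CPM, and with the inhibitor at 152, 268, 190.3 and 156 CPM. LFD lay below all others and HFD + Inhib above all others, while HFD and HFD + siRNA overlapped. The diet raised G0s2 by 0.98 on the log2 scale (1.98-fold, SE 0.23, adjusted p = 0.00807), and the inhibitor raised it by 1.27 against HFD (2.41-fold, SE 0.23, adjusted p = 9.73e-04). The step from HFD to HFD + siRNA was 0.51 (95% interval 0.04 to 0.99, adjusted p = 0.153), while HFD + siRNA was 1.5 above LFD (2.82-fold, SE 0.23, adjusted p = 8.43e-04). The inhibitor group was 0.76 above the siRNA group (1.69-fold, SE 0.22, adjusted p = 0.0161), a call lost without HFD + siRNA replicate 1 (0.64, adjusted p = 0.0527) or HFD + Inhib replicate 2 (0.56, adjusted p = 0.0620). The gene overlaps Lamb3 on the opposite strand.

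The lipase that G0s2 inhibits, Pnpla2, and its activator Abhd5 were picked after their values had been seen. Pnpla2 was at 49.6 ± 6.79 CPM in LFD, 41.8 ± 3.79 in HFD, 40.3 ± 10.1 with siRNA and 88.6 ± 18.1 with the inhibitor (SD, n = 4), and the inhibitor raised it by 1.09 on the log2 scale against HFD (SE 0.17, adjusted p = 2.37e-04). Abhd5 was at 23.4 ± 0.995 CPM in HFD and 34.3 ± 4.39 with the inhibitor (log2 0.55, SE 0.13, adjusted p = 0.00610). The RNA of the inhibitory protein, of the lipase and of the activator was thus higher in HFD + Inhib than in HFD.

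Cidec enlarges droplets by passing lipid from the smaller to the larger of a touching pair. On the log2 scale it had the widest range of the 9 genes. It was at 1.34, 0.430, 1.02 and 1.02 CPM in LFD and at 3.94, 15.2, 6.87 and 4.85 CPM in HFD. With siRNA it was at 4.11, 2.91, 3.56 and 3.72 CPM, and with the inhibitor at 64.9, 32.9, 39.2 and 45.3 CPM. LFD was below all others and HFD + Inhib above all others, and HFD replicate 2 stood above the other HFD libraries, with 590 counts beside 119, 181 and 124. The diet raised Cidec by 3.04 on the log2 scale (8.20-fold, SE 0.41, adjusted p = 2.61e-04) and the inhibitor by 2.55 against HFD (5.85-fold, SE 0.34, adjusted p = 7.89e-05). Without HFD replicate 2 these were 2.46 (adjusted p = 2.25e-04) and 3.13 (adjusted p = 3.40e-06). Against HFD + siRNA the inhibitor group was 3.67 higher (12.7-fold, SE 0.37, adjusted p = 2.48e-06), and HFD + siRNA was 1.92 above LFD (3.78-fold, SE 0.42, adjusted p = 0.0102).

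Cidec fell by 1.12 on the log2 scale from HFD to HFD + siRNA (SE 0.35, adjusted p = 0.0499), although the groups overlapped. This call was lost without HFD replicate 2 (-0.54, adjusted p = 0.217), without HFD replicate 3 (-1.17, adjusted p = 0.0847) and without each HFD + siRNA library in turn (-1.21 to -1.06, adjusted p from 0.0755 to 0.101). Fitting the 2 groups alone also ended it (-1.13, adjusted p = 0.0677), as did the replicate number as a block (-1.09, adjusted p = 0.0869).

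Cidea, best known from brown fat, was almost silent outside the inhibitor group. Its expected counts were 2, 0, 0 and 0 in the LFD libraries, 8, 48, 4 and 5 in HFD, 0, 6, 2 and 5 with siRNA and 679, 217, 762 and 307 with the inhibitor. In CPM the HFD + Inhib libraries were at 24, 8.43, 24.7 and 9.20, and the HFD libraries at 0.265, 1.23, 0.152 and 0.195. Replicates 1 and 3 of HFD + Inhib were higher than replicates 2 and 4, and all 4 were above every other library. All LFD libraries were at or under 3 counts, so against a level of 3 counts per LFD library HFD + Inhib was at least 157-fold higher and HFD at least 4.38-fold higher, or 1.94-fold without HFD replicate 2. The mean of HFD + Inhib was 35.9 times that of HFD, and 81.2 times without HFD replicate 2. No test is given, since Cidea was tested only through the group in which it was high.

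Cideb, the CIDE gene of normal liver, with a role in loading lipid onto very-low-density lipoprotein, was called higher in none of the 6 comparisons. It was at 153, 123, 159.6 and 138 CPM in LFD and at 143, 143, 127 and 138 CPM in HFD. The HFD + siRNA libraries were at 151, 158, 161 and 167 CPM and the HFD + Inhib libraries at 136, 133, 106 and 114 CPM. Those with siRNA were all above the HFD and HFD + Inhib libraries, and the rest overlapped. The step from HFD to HFD + siRNA was 0.21 on the log2 scale (95% interval 0.01 to 0.41, adjusted p = 0.173). Cideb fell by 0.38 on the log2 scale from HFD + siRNA to HFD + Inhib (SE 0.10, adjusted p = 0.00655). In the order HFD + Inhib, HFD, LFD, HFD + siRNA no step between neighbours passed (adjusted p = 0.252, 0.724 and 0.387). With GC content and length corrected for, the inhibitor group was also below HFD (-0.23, adjusted p = 0.0110). Against LFD, where the difference was -0.23 (adjusted p = 0.0758), it passed without LFD replicate 2 (-0.30, adjusted p = 0.0238) or HFD + Inhib replicate 1 (-0.28, adjusted p = 0.0492). Cideb shares 62.0% of its 50-base words with Nop9 on the opposite strand, and whether the counting used strand is not given in the sources used here, so its level is uncertain.

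The make-up of the CIDE family differed between the groups. Per kilobase, Cideb was 99.5% ± 0.177 of the 3 genes in LFD, 95.9% ± 2.58 in HFD, 98.4% ± 0.190 with siRNA and 71.3% ± 7 with the inhibitor (SD, n = 4). With the inhibitor, Cidec made up 18.4% ± 3.54 and Cidea 10.3% ± 5.27.

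**Figure D3:**
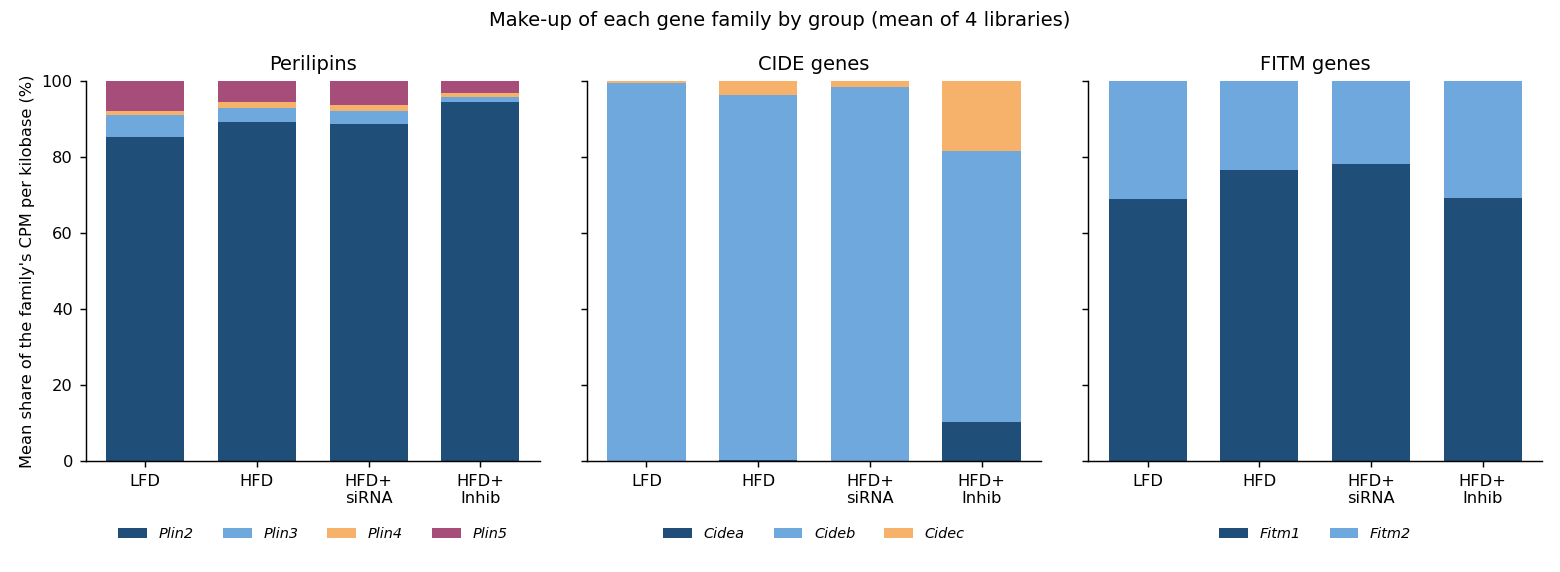
Stacked bars of the mean share (%, y axis from 0 to 100) that each gene takes of its family's CPM per kilobase of 1 transcript per gene, by group (mean of 4 libraries). At this length Plin2 takes from 85.4% of the perilipins in LFD to 94.4% in HFD + Inhib (76.6% and 90.3% by summed exons), and Cideb takes 99.5% of the CIDE genes in LFD and 71.3% in HFD + Inhib.

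Fitm1 and Fitm2 encode ER proteins that act on lipids while droplets bud. Fitm1 is best known from muscle, and Fitm2 is expressed widely. Fitm1 was at 13.2, 7.88, 9.38 and 13.7 CPM in LFD and at 17.7, 22.1, 18.2 and 18.9 CPM in HFD. Under siRNA the values were 23.8, 16.8, 23.8 and 19.98 CPM, and with the inhibitor 36, 34.0, 25.6 and 29.3 CPM. LFD was below and HFD + Inhib above all other libraries, with HFD and HFD + siRNA overlapping. The diet raised Fitm1 by 0.80 on the log2 scale (1.74-fold, SE 0.17, adjusted p = 0.00489), and the inhibitor raised it by 0.70 against HFD (1.62-fold, SE 0.17, adjusted p = 0.00766) and by 0.57 against HFD + siRNA (1.48-fold, SE 0.17, adjusted p = 0.0148). The step from HFD to HFD + siRNA was 0.13 (95% interval -0.22 to 0.48, adjusted p = 0.660).

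Fitm2 rose with the inhibitor, and its steps between the other groups did not pass. It was at 20.2, 16.1, 23.5 and 19.0 CPM in LFD and at 24.1, 27.4, 20.8 and 23.6 CPM in HFD. With siRNA it was at 23.4, 24.5, 24.3 and 22.6 CPM, and with the inhibitor at 67.7, 59.3, 43.1 and 56.3 CPM. The lowest HFD + Inhib library was above every other library, and the other groups overlapped. The inhibitor raised Fitm2 by 1.24 on the log2 scale against HFD (2.36-fold, SE 0.13, adjusted p = 7.51e-06) and by 1.25 against HFD + siRNA (2.39-fold, SE 0.13, adjusted p = 3.96e-06). In the order LFD, HFD + siRNA, HFD, the adjusted p of the steps was 0.253 and 0.949, and the 95% interval for HFD + siRNA against HFD was -0.30 to 0.26. Fitm1 made up 69.0% ± 5.82 of the pair per kilobase in LFD, 76.6% ± 1.30 in HFD, 78.1% ± 3.17 with siRNA and 69.3% ± 1.34 with the inhibitor (SD, n = 4). Small parts of both genes, 6.51% of the 50-base words of Fitm1 and 4.59% of those of Fitm2, are shared with antisense genes.

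Other genes of the droplet were followed in lists chosen for their role, and their counts stand beside the shares of all tested genes. With the diet 9.58% of all tested genes were higher and 8.8% lower. Against HFD these shares were 5.2% and 6.55% with siRNA and 9.8% and 8.42% with the inhibitor. Of 18 tested genes of droplet surface and droplet-associated proteins, 6 rose and 0 fell with the inhibitor against HFD (median log2 fold change 0.21, all tested genes 0.00). Without adjustment the counts were 9 and 0, and DESeq2 called 7 and 0. Hsd17b11, a droplet-bound dehydrogenase, was at 823 ± 25.1 CPM with the inhibitor and 122 ± 17.6 in HFD (log2 2.75, SE 0.13, adjusted p = 1.44e-09). Acsl3, an acyl-CoA synthetase of young droplets, was at 72.3 ± 18.0 and 34.3 ± 10.3 CPM (log2 1.08, SE 0.23, adjusted p = 0.00358). With siRNA 3 of the 18 rose and 2 fell against HFD (median 0.04). Among those that rose were Mettl7a1 (log2 0.40, SE 0.12, adjusted p = 0.0407) and Rab7 (0.27, SE 0.07, adjusted p = 0.0238). Those that fell were Rab18, a small GTPase of the droplet surface (log2 -0.47, SE 0.11, adjusted p = 0.0104), which had risen with the diet (0.46, SE 0.11, adjusted p = 0.00770), and Pcyt1a, the enzyme of phosphatidylcholine synthesis that binds growing droplets (-0.59, SE 0.09, adjusted p = 8.66e-04). With the diet 2 rose and 1 fell (median -0.03).

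Of 17 tested genes of droplet formation at the ER, 5 rose and 1 fell with the inhibitor against HFD (median 0.09). Gpat3, which catalyses the entry step of glycerolipid synthesis, was at 2.07 ± 0.947 CPM in LFD, 8.59 ± 1.31 in HFD, 3.83 ± 1.67 with siRNA and 37.9 ± 8.70 with the inhibitor (SD, n = 4). It rose with the diet (log2 2.05, SE 0.30, adjusted p = 5.00e-04), was lower with siRNA than in HFD (-1.16, SE 0.29, adjusted p = 0.0163) and higher with the inhibitor (2.14, SE 0.28, adjusted p = 5.35e-05). Dgat2, an enzyme of the last step of triglyceride synthesis, was at 215 ± 39.9 CPM with the inhibitor and 346 ± 40.8 in HFD (-0.69, SE 0.14, adjusted p = 0.00251). With siRNA 2 rose and 4 fell against HFD (median -0.02). Bscl2, which encodes seipin of the droplet neck, was at 33.3 ± 1.29 CPM with siRNA and 22.2 ± 2.16 in HFD (0.58, SE 0.12, adjusted p = 0.00491). With the diet 2 rose and 1, Bscl2, fell (median -0.08).

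In the list of lipolysis and its regulators, 7 of 16 tested genes rose and 0 fell with the inhibitor against HFD (median 0.44). Without adjustment the counts were 10 and 1, and DESeq2 called 10 and 1. Abhd6, a monoacylglycerol lipase, was at 104 ± 18.5 CPM with the inhibitor and 29.0 ± 3.11 in HFD (log2 1.84, SE 0.14, adjusted p = 2.70e-07), and Ddhd2, a triglyceride hydrolase, at 74.1 ± 13.4 and 24 ± 2.83 CPM (1.63, SE 0.13, adjusted p = 3.37e-07). With siRNA 1, Ces3a, rose (0.52, SE 0.15, adjusted p = 0.0353) and 3 fell against HFD (median -0.11). Ddhd2 was then lower (-0.73, SE 0.13, adjusted p = 0.00241), as was Pnpla3, a lipid remodelling protein of the droplet, at 0.346 ± 0.0436 CPM beside 2.33 ± 1.93 in HFD (-2.77, SE 0.80, adjusted p = 0.0339). With the diet 2 rose and 2 fell (median 0.05), with Mgll, a monoacylglycerol lipase, higher (0.80, SE 0.14, adjusted p = 0.00125) and Ces3b, a carboxylesterase, lower (-1.19, SE 0.32, adjusted p = 0.0190).

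Of 30 tested genes usually listed as PPARα targets, 11 rose and 0 fell with the diet (median 0.34), and 27 rose and 0 fell with the inhibitor against HFD (median 1.53). Without adjustment these counts were 13 and 0 for the diet and 27 and 0 for the inhibitor, and DESeq2 called 12 and 0 and 27 and 0. Cyp4a10, a fatty acid hydroxylase, was at 4960.1 ± 663 CPM with the inhibitor and 129 ± 36.3 in HFD (log2 5.26, SE 0.34, adjusted p = 3.37e-08). With siRNA 0 of the 30 rose and 3 fell against HFD (median -0.05; 2 and 6 without adjustment, 1 and 4 by DESeq2). Acot3, a thioesterase, rose with the diet (3.40, SE 0.49, adjusted p = 4.14e-04) and was lower with siRNA (-1.44, SE 0.44, adjusted p = 0.0428).

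Of 8 tested genes linked to PPARγ in fatty liver, Aqp7, a glycerol channel, passed the filter on low counts only through HFD + Inhib and is kept apart (0.141 ± 0.0561 CPM in HFD and 3.99 ± 1.36 with the inhibitor). Of the other 7, 3 rose and 0 fell with the diet (median 0.55; 5 and 0 without adjustment, 4 and 0 by DESeq2). With the inhibitor 5 rose and 0 fell against HFD (median 2.37; 6 and 1 without adjustment, 5 and 0 by DESeq2). With siRNA the counts were 0 and 0 (median 0.02), also without adjustment and by DESeq2. Mogat1, a monoacylglycerol acyltransferase, was at 0.234 ± 0.115 CPM in LFD, 1.70 ± 0.717 in HFD and 18.0 ± 5.29 with the inhibitor (SD, n = 4), and both steps passed (log2 2.82, SE 0.39, adjusted p = 2.87e-04, and 3.37, SE 0.29, adjusted p = 1.08e-06).

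Of 14 tested transcriptional regulators, 1, Creb3l3, rose and 0 fell with the inhibitor against HFD (median -0.20). Creb3l3, which is also counted among the PPARα targets, was barely under the threshold (log2 0.36, SE 0.12, adjusted p = 0.04997). The counts were 2 and 3 without adjustment and 1 and 0 by DESeq2. With GC content and length corrected for, Creb3l3 was higher (0.44, adjusted p = 0.00208) and Pparg lower (-0.39, adjusted p = 0.0113). With siRNA the counts were 0 and 0 (median 0.00; 3 and 1 without adjustment, 1 and 1 by DESeq2). Ppara was at 273 ± 30.7 CPM in LFD, 478 ± 92.9 in HFD, 437 ± 27.3 with siRNA and 586 ± 61.7 with the inhibitor (SD, n = 4). It rose with the diet (log2 0.81, SE 0.13, adjusted p = 7.57e-04) and was higher with the inhibitor than with siRNA (0.42, SE 0.13, adjusted p = 0.0165). Pparg rose with the diet from 7.79 ± 0.732 to 11.4 ± 0.737 CPM (0.55, SE 0.11, adjusted p = 0.00426). With the diet 2 of the 14 rose and 1, Mlxipl, fell (-0.62, SE 0.12, adjusted p = 0.00317). Between the treatments, 17.3% of all tested genes were higher with the inhibitor than with siRNA and 16.6% lower. Of the 14, 1, Ppara, was higher and 4 were lower (median -0.08; 1 and 5 without adjustment, 1 and 5 by DESeq2). The lower ones were Rxra, the partner of the PPARs on DNA (-0.54, SE 0.12, adjusted p = 0.00206), Nr1h3, an oxysterol receptor (-0.41, adjusted p = 0.0129), Hnf4a (-0.40, adjusted p = 0.00267) and Pparg (-0.34, adjusted p = 0.0289). With GC content and length corrected for, 3 were higher and 1, Pparg, was lower, beside 2216 and 2415 of 16109 genes. The calls of Rxra (-0.28, adjusted p = 0.0545), Nr1h3 and Hnf4a were then lost.

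**Figure D4:**
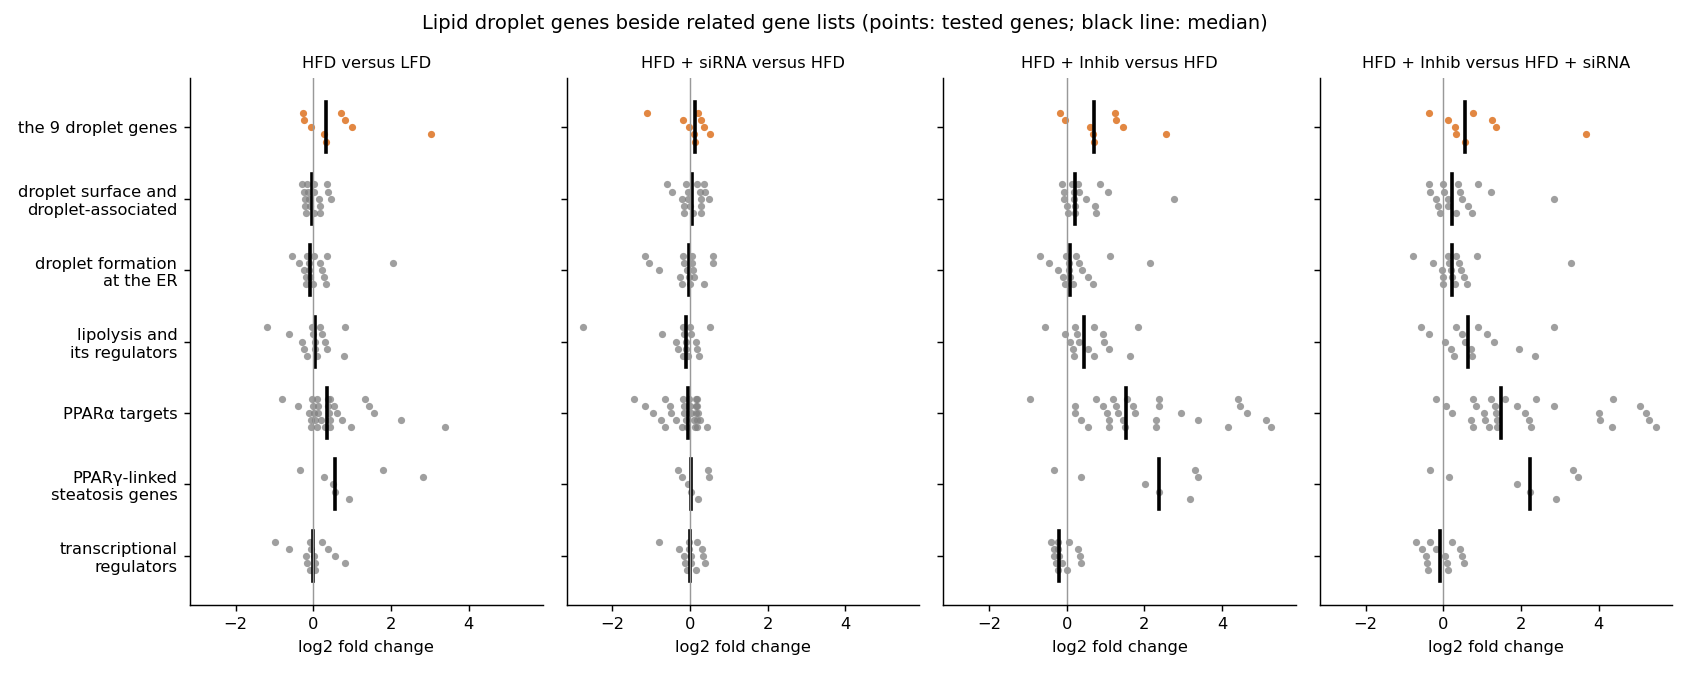
Log2 fold change (x axis, the same in the 4 panels) of the 9 lipid droplet genes other than Cidea and of the tested genes of 6 lists (without Aqp7), 1 point per gene, with the median of each as a black line. The PPARα targets and PPARγ-linked genes have medians of 1.53 and 2.37 for HFD + Inhib against HFD, the 9 droplet genes 0.70, and all medians lie near 0 for HFD + siRNA against HFD.

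Hepatocyte markers were abundant in every library, led by Alb. Their summed level was 96995 ± 6104 CPM in LFD, 86655 ± 7872 in HFD, 92553 ± 5647 with siRNA and 60949.8 ± 965 with the inhibitor (SD, n = 4). Of the 10 markers, 0 were higher and 4 lower with the inhibitor against HFD (0 and 6 without adjustment, 0 and 5 by DESeq2), and their part in the values of the droplet genes was not tested. Because Cidea, Cidec and Plin4 are also genes of fat cells, adipocyte markers were set beside them. Of 10 white adipocyte markers, 5 passed the filter, and 4 of these (Cfd, Adrb3, Fabp4 and Lipe) were higher and 0 lower with the inhibitor than in HFD (4 and 0 without adjustment, 4 and 0 by DESeq2). Fabp4, a fatty acid carrier also listed among the PPARγ-linked genes, was at 6.90 ± 0.732 CPM in HFD and 68.0 ± 25.6 with the inhibitor. The summed level of the list, led by Car3, was 1764 ± 351 CPM in LFD, 1479 ± 232 in HFD, 2927 ± 469 with siRNA and 1341 ± 193 with the inhibitor. Car3 alone was at 1737, 1451, 2890 and 1200 CPM in the same order, so these sums are mostly Car3. The other 5 markers of that list did not pass the filter. No HFD + Inhib library had more than 3 counts of Adipoq, 3 of Adig, 1 of Retn or 1 of Plin1, and all were at 0 for Lep. Elsewhere Adipoq had up to 16 counts in an LFD library and Lep up to 21 in an HFD library. Ucp1, the uncoupling protein of brown fat, had at most 1 count in any library. The brown adipocyte list, led by Elovl3, summed to 338 ± 65.6, 76.9 ± 52.3, 292 ± 166 and 213 ± 54.2 CPM, in the order LFD, HFD, siRNA and inhibitor. Elovl3 alone was at 330, 72.5, 285 and 197 CPM, so these sums are mostly Elovl3. Of its 3 tested genes 2 were higher with the inhibitor than in HFD. Adrb3 is in both adipocyte lists and is counted in each. With the diet, 1 white adipocyte marker (Cfd) was higher and 1 (Adrb3) lower. Of the 3 tested brown markers 0 were higher and 3 lower, and of the hepatocyte markers 0 were higher and 2 lower. With the inhibitor against siRNA, 1 hepatocyte marker was higher and 6 were lower, beside 17.3% and 16.6% of all tested genes. In the same comparison 4 white adipocyte markers were higher and 1 was lower. The part of fat cells in the values of the droplet genes was not tested.

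Skeletal muscle markers, relevant to Fitm1 and Plin4, summed to 0.346 ± 0.150, 0.353 ± 0.162, 0.393 ± 0.0759 and 0.408 ± 0.130 CPM in the same order, with Mylpf the most abundant. The macrophage list, led by Clec4f, summed to 263 ± 51.1, 254 ± 22.9, 303 ± 37.7 and 196 ± 37.7 CPM, and the stellate cell list, led by Reln, to 435 ± 51.4, 493 ± 47.5, 543 ± 32.1 and 376 ± 21.8 CPM. In each, 0 of 8 markers were higher and 2 lower with the inhibitor against HFD (0 and 2 and 0 and 4 without adjustment, and the same calls by DESeq2). Lymphocyte markers, led by Ptprc, summed to 18.4 ± 4.69, 33.1 ± 11.4, 16.9 ± 1.56 and 20.4 ± 4.51 CPM. Of the 5 whose passing of the filter rests on no single group, 0 were higher and 1 was lower with the inhibitor against HFD. Without adjustment these counts were 0 and 4, and by DESeq2 0 and 1. Of the same 5, 2 were higher in HFD than in LFD. Endothelial markers, led by Stab2, summed to 443 ± 31.2, 381 ± 21.8, 438 ± 42.3 and 361 ± 13.1 CPM. Of 8 endothelial markers 1, Lyve1, was higher with the inhibitor against HFD (0.86 on the log2 scale, adjusted p = 0.031) and 0 were lower (1 and 0 without adjustment and by DESeq2, 0 and 0 with GC content and length corrected for), while of 5 cholangiocyte markers other than Cftr 0 were called in this comparison (0 and 0 without adjustment and by DESeq2). Cholangiocyte markers, led by Spp1, summed to 33.5 ± 8.42, 38.3 ± 8.70, 36.3 ± 3.38 and 37.1 ± 10.0 CPM. With the diet, 1 stellate cell marker and 1 cholangiocyte marker were higher and 0 lower. With the inhibitor against siRNA, 0 macrophage markers were higher and 5 lower, and 0 stellate cell markers were higher and 3 lower. The shares of all tested genes were 17.3% and 16.6%. In the same comparison 1 endothelial marker was higher and 2 were lower. The part of these cells in the values of the droplet genes was not tested.

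For each of the 10 genes, the genes with the most similar pattern over the 16 libraries were found by Pearson's r of log2 CPM among 14310 other tested genes with a mean of at least 1 CPM. The points share their 4 groups, so that any genes that rise with the inhibitor have a high r. Plin2 was most like Suclg1 (0.979), Pex11a (0.978) and Acad11 (0.976), which encode a succinyl-CoA ligase subunit, a peroxisome division factor and an acyl-CoA dehydrogenase. Fitm2 was most like Eci1 (0.981), Paqr7 (0.977) and Decr2 (0.973), of which Eci1 and Decr2 are enzymes of unsaturated fatty acid oxidation. Cidec was most like Osbpl3 (0.975), Slc39a5 (0.963) and Clstn3 (0.959), and Cidea most like LOC118567624 (0.967), Slc35f2 (0.961) and Prxl2a (0.959). Fitm1 was nearest to Ghitm (0.945), Fads2 (0.943) and Tmem189 (0.941), and G0s2 to Nfe2l1 (0.925), Fads2 (0.920) and Rars2 (0.914). Plin4 was nearest to Pde7b (0.898), Pros1 (0.890) and Dmac2l (0.879), and Plin5 to Agpat2 (0.883), Stk16 (0.850) and Tbc1d25 (0.836), of which Agpat2 is an enzyme of glycerolipid synthesis. Plin3 was nearest to Hs1bp3 (0.893), Gpr157 (0.868) and Gm31522 (0.860). Of the 30 genes found in this way for the 10, 7 were also among the nearest 3 by Spearman's rank correlation. With a prior count of 0.5 in place of 2, 28 of the 30 were kept, and the others were LOC118567624 and Prxl2a, for Cidea.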

How the data were processed

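Liver RNA of 16 mice was sequenced, 4 libraries to a group, and each library took its group from its label. The authors deposited expected counts (RSEM, not scaled between libraries) for 50559 gene symbols, and 15.1% of the values are not whole. The submitters' processing notes name STAR, RSEM and the mm39 build. The study's methods name HTG EdgeSeq, an assay that counts probes and would give whole counts. The assay behind the table was therefore not settled, and statements on GC content, length and shared sequence hold only for reads along transcripts.

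Expected counts were rounded. Genes were kept by filterByExpr (minimum count 10, minimum total 15), which left 18335 of 33142 genes with any count, all 10 droplet genes among them. After TMM scaling, 6 comparisons were tested within 1 fit of all libraries by the quasi-likelihood test of edgeR 4.0.16 in R 4.3.3 (common dispersion 0.0380), with p adjusted by Benjamini-Hochberg across the 18335 genes and a threshold of 0.05. Nothing in the labels says that the mice of a group are more than numbered replicates, so the p-values measure the spread between these libraries. Levels are CPM from TMM-scaled totals, intervals are at 95%, and levels per kilobase use the length of 1 GENCODE transcript per gene. The floor of 3 counts was worth 0.0771 to 0.126 CPM, which covers counting error only.

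Alternatives were DESeq2 1.42.0, its size factors in edgeR, no filter, 10 counts in every library, unrounded counts, only the 2 groups compared, a replicate block, each library left out in turn, an adjusted p of 0.01, summed exon length, and trends on GC content and length fitted per library (5 degrees of freedom, genes with a mean log2 CPM of at least 3), with and without the block. In simulated counts for HFD + Inhib against HFD over 18074 genes, edgeR recovered 13 of 50 genes changed 1.5-fold, 30 of 50 at 2-fold, 46 of 50 at 3-fold and 48 of 50 at 4-fold, with 4 false calls. Only 200 genes were changed there, with dispersions from the trend over genes, whereas 18.2% of genes were called in the data. These rates therefore need not hold for the data. With a GC trend imposed on the HFD + Inhib libraries, of a slope that was set and not taken from these data, the fit without correction made 805 false calls over 18046 genes and the corrected fit 9 over 15895. The main fit has no such correction.

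Transcript lengths, GC content, neighbours and shared 50-base words came from GENCODE M21 and promoter windows from RefSeq, both on GRCm38, and no coordinates were carried over to mm39. The droplet genes and the lists were chosen with earlier results of these data known, and no list was tested as a set. Genes that reached the level of the filter in under 4 libraries outside a single group were left out of counts per list. Besides the droplet genes and Khk, the text names up to 2 genes in each direction per pathway list and comparison, those farthest from 0 among called genes with a mean of at least 1 CPM, the most abundant gene of each marker list, the 3 genes of highest Pearson's r for each droplet gene (those of Cideb are not reported here), and chromosomal neighbours. Pnpla2, Abhd5, Lyve1, Hnf4a and the adipocyte markers other than Car3 and Elovl3 are outside that rule and were chosen after their values were seen.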

Additional observations from a re-analysis of the deposited data

Results flagged for a closer look

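Over the droplet genes and Khk, 44 sets of 4 libraries were looked at for a library far from the other 3, and 3 stood apart. Chance alone would pick out about 1 set in 20. In LFD, replicate 1 had 0.0838 CPM of Cidea, which is 2 counts, while the other libraries had none. In HFD, replicate 2 stood apart with 1.23 CPM of Cidea. The same library was the deepest of the 16 (35820234 expected counts) and had the highest Cidec and Plin2 of its group. In HFD, replicate 3 stood apart with 111 CPM of G0s2, beside 66.7 to 71.8 CPM in the other HFD libraries.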

How the results depend on the processing

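Over the fold changes of Khk and the 9 droplet genes other than Cidea, 958 alternative values kept their direction and side of the threshold, 29 lost a call, 12 gained one and 21 changed sign. The cause was not tested. At an adjusted p under 0.01, 1287 genes were called for HFD against LFD, 689 for siRNA and 1733 for the inhibitor against HFD, 3711 for the inhibitor against siRNA, and 566 for siRNA and 4123 for the inhibitor against LFD. Of the 9 droplet genes, 3 were called at that threshold for HFD against LFD, 0 for siRNA against HFD and 3 for siRNA against LFD. For the inhibitor, the calls of Plin4 and Plin5 against HFD were lost (adjusted p = 0.0265 and 0.0291). So were those of Fitm1 and G0s2 against siRNA (0.0148 and 0.0161) and of Plin3 against LFD (0.0269). With only the 2 groups compared, 808 genes were called for siRNA against LFD, and 0 droplet genes for siRNA against HFD. Leaving out each library in turn gave 2001 to 3691, 1100 to 1981 and 965 to 1456 called genes for HFD against LFD, siRNA against HFD and siRNA against LFD, and 3 to 4, 0 to 1 and 5 of the 9 droplet genes. For the inhibitor it gave 2532 to 3050 called genes against HFD, 4934 to 6251 against siRNA and 5477 to 6830 against LFD, among them 5 to 7, 5 to 6 and 6 to 8 of the 9 droplet genes.

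With the replicate number as a block, 0 droplet genes were called for siRNA against HFD (Cidec -1.09, adjusted p = 0.0869), also together with the GC and length correction (-1.24, adjusted p = 0.0584). The block alone changed no other call. Whether the numbers pair the mice was not settled. Of 24 pairs of same-numbered libraries, 6 had a correlation of deviations over 0.1 (-0.13 to 0.34). On the other side, 9 of 16 libraries correlated best with their own number, where 4 numbers were possible.

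The signs that changed were of differences that had not passed. Khk in HFD against LFD became 0.00527 with at least 10 counts in every library, 0.00381 with the block, 0.20 with the GC and length correction, 0.21 with both, and -0.12 to 0.15 with a library left out. Cideb in HFD against LFD became 0.0907 with the correction, with or without the block, and -0.12 to 0.00346 with a library left out. For siRNA against HFD, Plin2 became -0.0441 with the correction and -0.0381 with the block added, Fitm1 became -0.15 under both, and Fitm2 ranged from -0.0799 to 0.0539 with a library left out. Plin5 for siRNA against LFD ranged from -0.11 to 0.19.

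The correction covered 16109 genes (87.9% of those tested). With it 1345 were higher and 1131 lower for HFD against LFD, and 629 and 821 for siRNA against HFD. For the inhibitor against HFD they were 1578 and 1806, beside 1796 and 1543 without it. Corrected counts were 2216 and 2415 for the inhibitor against siRNA. Against LFD they were 1060 and 945 for siRNA, and 2254 and 2446 for the inhibitor. Over 8339 genes, the rank correlation of log2 fold change with GC content was -0.53 for HFD against LFD, 0.51 for siRNA and -0.28 for the inhibitor against HFD, -0.54 for the inhibitor against siRNA, and -0.08 for siRNA and -0.57 for the inhibitor against LFD. With summed exon length in place of 1 transcript, Plin2 was at 88.0 and Cideb at 96.2 CPM per kilobase in LFD, so that their order depends on the length used. Depth limits Cidea outside HFD + Inhib, where 1 of 12 libraries had at least 10 counts.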
